A study of Mus musculus with 12 samples.

Results

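The subject of these results is a set of 6741 adjacent-base pairs of 5-formylcytosine (5fC), listed on autosomes of mouse embryonic stem cells that lack TDG and absent from the list of cells that keep it. Knockout sites no more than 1000 bases apart were joined into regions. A pair was a member when its 2 bases were exactly 1 base apart, neither base was in the control list, and its region held 2 to 4 knockout sites. The rule selected 6741 of 13518 adjacent pairs on the 19 autosomes, lying in 6597 of 31575 regions of that size. Both lists chose the members, so their absence from the control list, their pairing and the size of their regions are a description and not a result.

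5fC arises when TET enzymes oxidise 5-methylcytosine through 5-hydroxymethylcytosine. TDG, thymine DNA glycosylase, cuts out 5fC and its further oxidised form 5-carboxylcytosine, and base excision repair then restores an unmodified cytosine. Methylation in mammals sits mainly on CpG, a palindrome whose cytosines on the opposite strands occupy neighbouring bases. An adjacent pair is thus the layout that a CpG with 5fC on both strands would give, and a single listed base the layout of a CpG with 5fC called on 1 strand. The lists carry neither strand nor sequence, so no pair was checked to be a CpG.

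The cells were lines of strain C57BL/6-ICR, grown without feeders in serum and LIF, with the genotypes Tdg -/- (knockout) and Tdg fl/fl (control, whose floxed alleles keep TDG). Each genotype gave 2 biological replicates as fragmented input, as input labelled with azido-indandione, and as DNA pulled down through the label, 12 libraries in all. The label reacts with 5fC and makes it read as T. The data used here are 1 list of positions per genotype on mm9, with 138649 knockout and 32614 control sites on autosomes. No level, read depth, replicate, strand or value of Tdg stands beside a position, so genotype labels were not checked and no difference between genotypes has a replicate check. Percentages have exact Clopper-Pearson 95% intervals, which cover counting error only and are too narrow where members share a region. All positions are printed as listed on mm9, with the lower and upper base of the pair. What is annotated there and the sequence around them were not analysed here.

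The rule allows a member at most 2 other knockout sites in its region, so having few listed neighbours is not a result. Knockout pairs in regions of 2 to 4 sites, members and others, numbered 8784. Of these, 2652 lay in 2-site, 3491 in 3-site and 2641 in 4-site regions. The 2 bases of 2047 members (30.4%) were the whole region, with no other knockout site within 1 kb. A further 2657 members (39.4%) had 1 extra site. The 4-site regions held 1658 members (24.6%) whose companions were 2 unpaired sites, and 379 (5.62%) that shared the region with another pair. The span from first to last site had a median of 102 bases in 3-site regions, 326 bases in 4-site regions with 1 pair and 75 bases in those with 2 pairs. Just inside the size limit, 4877 regions of 4 sites held 2037 knockout-only pairs. Just outside it, 2492 regions of 5 sites held 1320. A pair of either kind, with or without a control base, lay in 49.0% of the 4-site and 58.1% of the 5-site regions. At the joining limit, 3 members had their next knockout site 1001 bases away: chr11:3230666-3230667, chr13:41018494-41018495 and chr14:76677987-76677988. In the other direction, 98 members lay in regions with an internal gap of 901 to 1000 bases.

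Adjacency stood out from every other spacing of the knockout sites. Of 16955 regions with exactly 2 knockout sites, 2652 were an adjacent pair (15.6%, 15.1 to 16.2), of which 2047 are members. Only 22 had a gap of 2 bases (0.130%, 0.0813 to 0.196). The most frequent single gap other than 1 base, up to 1000 bases, was 11 bases, with 123 regions. The gap of 1 base was 21.6 times as frequent as that one. Over all autosomal knockout sites, 19.5% had another listed exactly 1 base away.

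**Figure D1:**
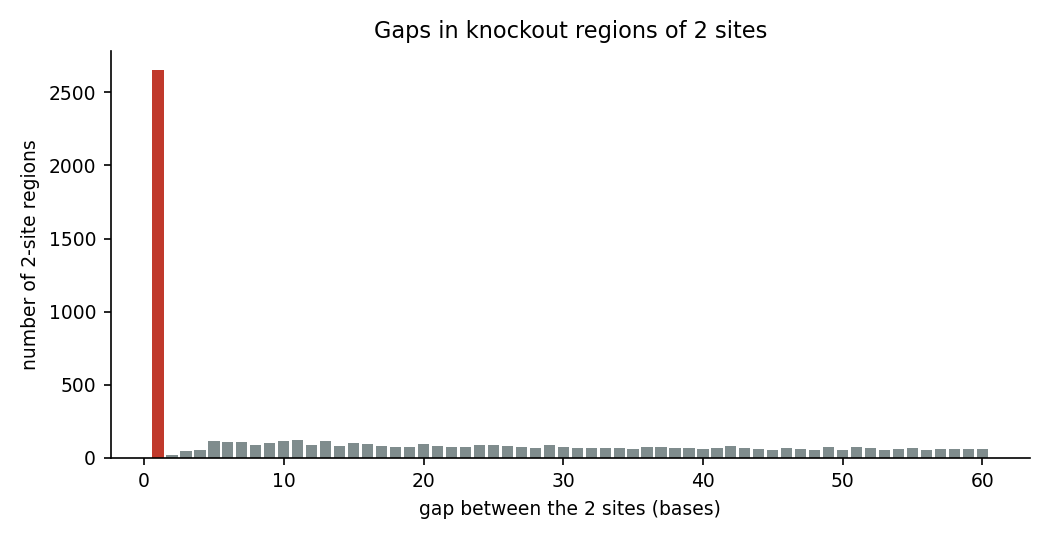
Number of knockout regions of exactly 2 sites (vertical axis) against the gap between the sites in bases (horizontal axis, shown to 60 bases). The red bar, adjacent pairs, holds 2652 regions, and the next highest bar, at 11 bases, holds 123.

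Runs longer than a pair were nearly absent. On autosomes 2 runs of 3 consecutive bases were listed, at chr4:106473148-106473150 and chr5:149089955-149089957. Each contributed 2 overlapping pairs that meet the rule, so 2 bases belong to a pair of members, and these regions were left out of the counts of positions and of the gaps between pairs below.

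The share of pairs differed little with the number of neighbours once a pair was counted as 1 position. Among regions with 1 position, 2652 of 25618 positions were listed at both bases (10.4%, 9.98 to 10.7). The share was 11.1% (10.7 to 11.4) of positions in regions with 2, 10.7% (10.3 to 11.1) with 3, 10.96% (10.5 to 11.5) with 4 and 10.9% (10.5 to 11.3) with 5 or more. These are all knockout pairs, members and others. In the control list the same shares were 2.61% (2.39 to 2.84) with 1 position, 2.74% (2.40 to 3.10) with 2 and 3.03% (2.42 to 3.74) with 3. Counted in sites instead, 15.6% of sites in 2-site regions and 27.1% in 4-site regions were paired, since a pair itself adds a site to its region.

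A pair was slightly more often met beside another pair. In knockout regions with 2 positions, a position whose neighbour was a pair was itself a pair in 12.5% of cases (500 of 3991, 11.5 to 13.6). A position whose neighbour was a single base was a pair in 10.9% (3491 of 32097, 10.5 to 11.2). A region of 2 pairs, or of 2 single bases, enters its share through both positions, so both intervals are too narrow. Whether the shares differ beyond counting error was not tested. Of 250 regions made of 2 separate pairs, both were members in 142, 1 was in 91 and neither was in 17.

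The absence from the control list, which the rule used, was the usual state of knockout pairs. Of all autosomal knockout pairs 76.1% had neither base in the control list, and of those in regions of 2 to 4 sites 76.7%. The share was 77.2% (75.5 to 78.8) in 2-site, 76.1% (74.7 to 77.5) in 3-site and 77.1% (75.5 to 78.7) in 4-site regions. Outside the limit it was 75.4% (73.3 to 77.4) in 5-site regions. The pairs that were left out had 1 control base in 1873 cases and both in 170, and the single control base was the lower one in 896 and the upper one in 977.

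**Figure D2:**
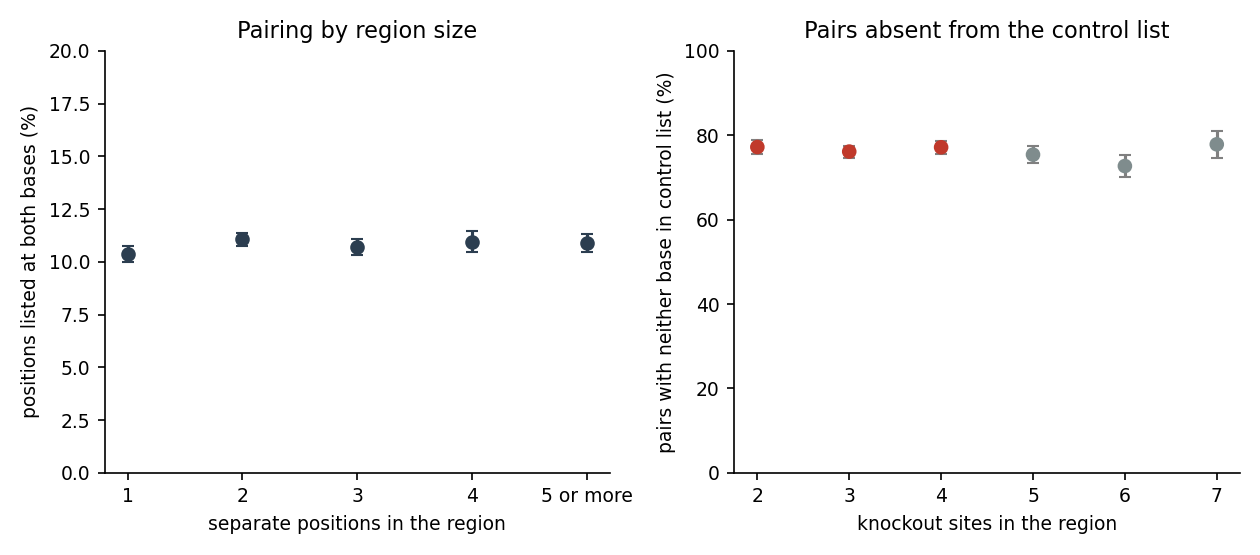
Left, positions listed at both bases as a percentage of positions, by the number of separate positions in the knockout region, between 10.4% and 11.1% throughout. Right, pairs with neither base in the control list as a percentage of pairs, by the number of knockout sites in the region, with sizes within the rule in red and larger ones in grey; bars are exact 95% intervals.

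Single knockout bases matched the control list less often than pairs did, which is again a description, since the rule used that list. In regions of 2 to 4 sites, 23.3% of pairs (22.4 to 24.2) had a control site on at least 1 of their bases. For a single listed base, a control site lay on it or 1 base away in 11.5% of cases (11.2 to 11.7), and only 1 base away in 2.13%. Counted per base, 12.6% of paired bases (12.1 to 13.1) and 9.32% of single ones (9.10 to 9.55) were in the control list, against 9.95% of all autosomal knockout sites. The control list holds no levels, so whether 5fC was absent at the members or below the authors' limit in control cells was not tested.

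Control sites near the members were limited by the rule only in part. A control site that is also a knockout site and lies within 1 kb adds a site to the region, so 2-site regions can have none, while a site listed in control cells alone is not limited in this way. The median distance from a member to the nearest control site was 6736 bases, with quartiles of 756 and 24538 bases and a largest value of 1771035 bases. A control site lay within 100 bases of 835 members (12.4%, 11.6 to 13.2), within 1 kb of 1780 (26.4%, 25.4 to 27.5) and within 10 kb of 3878 (57.5%). Over all autosomal knockout sites, a control site more than 1 base away lay within those distances in 13.4%, 35.1% and 64.4%. Counting only sites listed in control cells alone, 7.98% of members (7.34 to 8.65) had one within 100 bases and 18.97% (18.04 to 19.93) within 1 kb, against 7.6% and 23% of all autosomal knockout sites, many of which lie in larger regions.

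By region size, a control site of either kind lay within 1 kb of 15.2% of members in 2-site, 26.8% in 3-site and 37.2% in 4-site regions, with medians of 9682, 7144 and 3779 bases. The joining rule sets part of this order, since it bars the shared sites from 2-site regions. For sites listed in control cells alone, the shares were 15.2% (13.7 to 16.8), 19.2% (17.7 to 20.7) and 22.5% (20.7 to 24.4), a smaller spread in the same order. The share was then lower in 2-site than in 4-site regions on 16 of 19 autosomes (difference -7.34 points, -9.73 to -4.95). Within 100 bases these shares were 7.33% and 8.49%, with an interval of the difference that includes 0 (-2.83 to 0.494). Knockout-only pairs in regions of 5 or more sites, which are no members, had such a site within 1 kb in 31.5% of cases. Regions of more sites also cover more ground, and the part of this in the order was not tested.

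Set beside single bases in regions with the same number of positions, the members were not distinguishable at 1 kb. For these comparisons the bases on either side of a single site were left out, as both bases of a pair are. Distances ran from the nearer base of a pair and from the single base itself, so the window around a pair was slightly wider. Single bases with a control site 1 base away were kept, while a pair with a control site on either base is no member. The effect of these mismatches was not tested. With 1 position, 15.2% of members and 16.2% of knockout-only single bases had a control site within 1 kb (difference -0.966 points, -2.54 to 0.727). With 2 positions the shares were 27.9% and 26.9% (difference 1.03, -0.614 to 2.74), and with 3 positions 37.6% and 37.3% (difference 0.276, -2.12 to 2.72). The members were the higher on 10 of 19 autosomes in each of the 3 comparisons at 1 kb. Within 10 kb the differences were 1.36 points (-0.910 to 3.62) with 1 position and -0.716 (-2.58 to 1.13) with 2. With 3 positions the shares within 10 kb were 67.9% and 65.4% (difference 2.52, 0.144 to 4.81). The members were then the higher on 12 of 19 autosomes, and the interval comes close to 0.

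Closer in, members had somewhat more control sites than matched single bases. Within 100 bases the shares were 7.33% against 6.19% with 1 position (difference 1.14 points, 0.0383 to 2.39; higher on 15 of 19 autosomes). They were 13.8% against 11.2% with 2 positions (difference 2.60, 1.36 to 3.92; higher on 16) and 16.1% against 14.3% with 3 (difference 1.84, 0.0855 to 3.75; higher on 13). With sites listed in control cells alone, the differences were 1.22 points (0.261 to 2.28) with 2 positions and 1.33 (0.00570 to 2.83) with 3, higher on 14 and 11 of 19 autosomes. With 1 position this is the same count, as the joining rule bars shared sites within 1 kb, so it adds no second check. These intervals cover counting error only, and those with 1 and with 3 positions come close to 0. The slightly wider window around a pair was not allowed for.

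**Figure D3:**
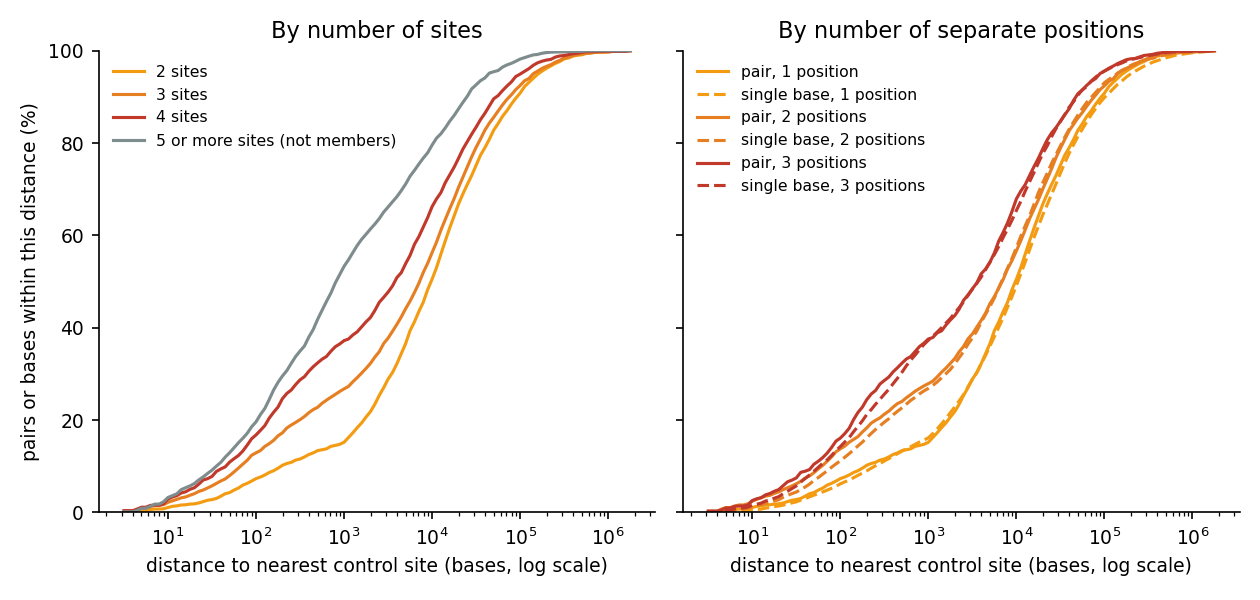
Cumulative percentage of pairs or bases (vertical axis) within a given distance of the nearest control site (horizontal axis, bases, log scale). Left, members in regions of 2, 3 and 4 sites against knockout-only pairs in regions of 5 or more, with 15.2%, 26.8%, 37.2% and 53.3% within 1 kb; right, members (solid) against knockout-only single bases (dashed) by number of positions, whose curves nearly coincide at 1 kb.

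Control sites around members lay evenly on both sides. Of the 1780 members with a control site within 1 kb, the nearest was above the pair in 885 (49.7%, 47.4 to 52.1). It lay within 10 bases in 139 cases (2.06% of members, 1.74 to 2.43). Over all autosomal knockout sites, a control site more than 1 base away lay within 10 bases in 1.61%. With 1, 2 and 3 positions the shares were 1.07%, 2.44% and 2.59% of members. Those of knockout-only single bases were 0.584%, 1.26% and 1.57%. No member had a control site on the base just outside the pair (0 of 6741, which allows a share of up to 0.0445%, taken as 3 counts of the total), and 6 had one 2 bases from it. In 2-site regions none of the 311 nearest control sites within 1 kb was a knockout site, as the joining rule requires, so these were bases listed in control cells alone. In 3-site regions 235 of 711 nearest control sites (33.1%, 29.6 to 36.6) were also knockout sites.

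The other sites of member regions were also looked up in the control list. The extra site of 3-site regions was in the control list in 257 of 2657 cases (9.67%, 8.57 to 10.9), and the extra sites of 4-site regions in 432 of 4074 (10.6%, 9.67 to 11.6). The second count takes in the bases of second pairs, on which the rule acts. In 142 regions the second pair was a member too, so its bases were barred from the control list. In 91 others it was not a member, so at least 1 of its bases was in that list. Regions of 3 or 4 sites without a pair had 9.07% (8.74 to 9.41) of their sites in the control list, an interval that overlaps that of the 3-site member regions. Of all autosomal knockout sites, 9.95% were in the control list. The rule sets part of the 4-site share, so no difference from these shares is read from it. No control site lay between the first and last base of 84.3% of 3-site (82.9 to 85.7) and 69.3% of 4-site member regions (67.2 to 71.4). In 2-site regions this holds by the rule, which also bars control sites from the pair itself in the larger ones. No share for regions without a pair stands beside these values, so they are not read as a trait of the members. A control adjacent pair lay within 1 kb of 51 of 6597 member regions (0.773%, 0.576 to 1.02) and of 271 of 23043 regions of 2 to 4 sites without a pair (1.18%, 1.04 to 1.32). The rule bars control bases from the pair itself in the first set only.

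Members sat closer to their neighbour than single bases did to theirs. In 3-site regions the third site was a median of 101 bases from the member (95% interval 92 to 109, quartiles 36 and 272), above or below it about equally often (below in 49.5%). In 2-site regions without a pair, which also hold 2 positions, the gap had a median of 136 bases (132 to 140, quartiles 47 and 329). The median was shorter beside a member on 19 of 19 autosomes. Between the pairs of 233 4-site regions that held a member, the gap had a median of 73 bases (53 to 87). Within 10 bases lay 8.13% of the extra sites, 13.3% of the second pairs and 5.29% of the neighbours in regions without a pair.

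The shorter gap was also present in pairs that are not members. Pairs with a control base in 3-site regions had a median of 87 bases to the third site (78 to 99, shorter than without a pair on 18 of 19 autosomes). In the control list, treated by itself in the same way, 237 regions with 1 pair and 1 single base had a median gap of 99 bases (84 to 117). The 4131 control regions of 2 single bases had 155 bases (149 to 164), and the median was shorter with a pair on 15 of 19 autosomes. In knockout regions with more positions, the nearest neighbour of a pair was again nearer than that of a single base. The medians were 67 against 89 bases with 3 positions, where members are included. They were 58 against 81 with 4 and 56 against 71 with 5 or more, where the limit of 4 sites leaves no member. Within 3-position regions that held exactly 1 pair, the difference was smaller, with 74 bases for the pair (67 to 79) and 81 for the single bases (76 to 88), intervals that overlap, and the median was shorter for the pair on 17 of 19 autosomes.

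**Figure D4:**
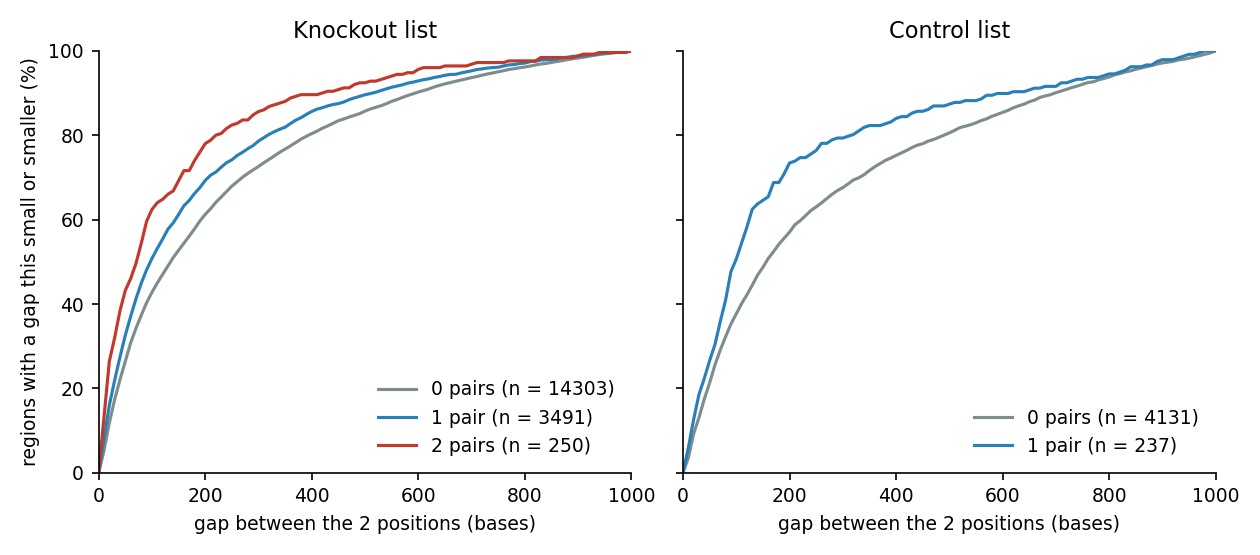
Cumulative percentage of regions with 2 positions (vertical axis) by the gap between the positions in bases (horizontal axis), for regions with 0, 1 or 2 adjacent pairs. In the knockout list (left) medians are 136, 98 and 73 bases, over members and other pairs together, and in the control list (right) 155 and 99 bases for 0 and 1 pairs.

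Spacing ranges that earlier results of these data had picked out for all knockout sites were counted for the members as well. Over 6206 distances from members to other sites of their regions, 340 fell at 170 to 200 bases, against 482 at 78 to 108 and 176 at 262 to 292 bases. The first number was 1.17 times the geometric mean of the other 2, and in 2-site regions without a pair this ratio was 1.11. The same ratios were 1.26 and 1.25 at the second of the ranges and 1.18 and 1.31 at the third, 540 to 570 bases. The ranges were chosen on a list that contains these distances, so ratios above 1 are no separate support, and no interval was computed.

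Over regions of 2 to 4 sites together, the nearest knockout site outside the region was about as far away as for regions without a pair. Its median distance was 5107 bases from member regions (4879 to 5299) and 4908 bases (4802 to 5028) from regions of 2 to 4 sites without a pair. At an equal number of sites the medians were higher for member regions. For 2 sites they were 5474 (5156 to 6092) against 5280 bases (5148 to 5438). For 3 sites they were 5279 (4944 to 5590) against 4554 (4363 to 4707), intervals that do not overlap. For 4 sites they were 4485 (4141 to 4853) against 4168 (3879 to 4409). A 3-site region with a pair has 2 positions, like a 2-site region without one, and their medians of 5279 and 5280 bases were nearly equal. Of member regions, 158 (2.40%) had no other knockout site within 100 kb, about the same share as the 570 (2.47%) of regions of 2 to 4 sites without a pair.

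Members were spread over all autosomes in near proportion to the knockout sites. They numbered 195 on chromosome 18 to 527 on chromosome 11, and their frequency averaged 4.88 ± 0.251 per 100 knockout sites (SD, n = 19 autosomes, which are not replicates). The highest values were on chromosomes 7 (5.37 per 100), 9 (5.26) and 14 (5.23), and the lowest on chromosomes 5 (4.41), 8 (4.55) and 10 (4.63). Neighbours in this order differed by less than their intervals. The interval of chromosome 7, 4.88 to 5.89, did not overlap that of chromosome 5, 4.03 to 4.83, which are the extremes of 19. Per Mb, members ranged from 1.97 on chromosome 3 to 4.44 on chromosome 11.

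**Figure D5:**
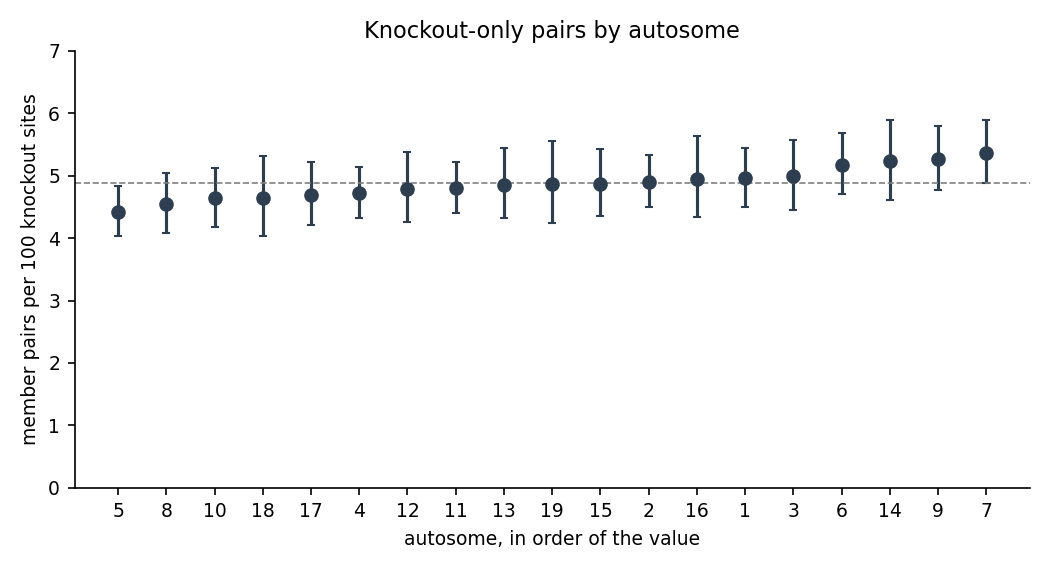
Member pairs per 100 knockout sites (vertical axis) for each autosome (horizontal axis, ordered by value), with exact 95% intervals and the mean as a dashed line. Values run from 4.41 on chromosome 5 to 5.37 on chromosome 7 around a mean of 4.88.

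At the scale of 1 Mb, 1629 of 2423 autosomal windows (67.2%) held a member, with a median of 2 and a highest number of 22. Across windows, the number of members and of all other knockout sites were correlated (Pearson's r 0.851, Spearman's rho 0.862), a description over windows that share 1 library set and base composition. For members and control sites these values were 0.834 and 0.842, again a description. The 5 windows with the most members started at 117 Mb on chromosome 11 (chr11:117000000-117999999, 22 members), 64 Mb on chromosome 5 (chr5:64000000-64999999, 21), 96 Mb on chromosome 11 (chr11:96000000-96999999, 19), 148 Mb on chromosome 4 (chr4:148000000-148999999, 18) and 100 Mb on chromosome 15 (chr15:100000000-100999999, 18). The window on chromosome 5 had 220 knockout sites, fewer than the 307 to 407 of the others. It so had 9.55 members per 100 sites (6.01 to 14.2) against 5.22 to 6.19. The mean over autosomes was 4.88. All 5 windows were picked for their number of members, which favours high values, and the interval does not allow for this. The 21 members of the window on chromosome 5 lay in 18 regions, 5 of them as pairs alone, and 7 had a control site within 1 kb.

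The median distance from a member to the nearest other member was 49322 bases. Within 1 kb of another were 288 members (4.27%), all in shared 4-site regions, since the joining rule keeps members of different regions farther apart.

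Single members illustrate the range. The 2-site member farthest from any control site was chr3:75321957-75321958, at 1436581 bases, with the next knockout site 342814 bases away. The next in distance were chr5:10584749-10584750, at 1419526 bases, and chr4:71296591-71296592, at 1255617 bases. Among 3-site regions, chr7:65401826-65401827 was 1757798 bases from a control site and had its extra site 20 bases below. The pair chr14:124386671-124386672 was 1506128 bases from one, and chr2:86925327-86925328 was 1426885 bases from one with its extra site 6 bases below. These pairs stood in stretches where control sites were absent for over 1 Mb.

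Regions of 4 sites had equally remote cases. The pair chr14:96232913-96232914 was 1667005 bases from a control site, and its 2 companions lay 13 and 38 bases above it. The pairs chr15:90019987-90019988 and chr6:15670012-15670013 were 727934 and 547534 bases from one. The most distant of all members were a double pair on chromosome 4, chr4:71811970-71811971 and chr4:71812009-71812010, 38 bases apart and 1771035 bases from a control site at most. Another pair, chr10:128793775-128793776, was 451697 bases from one, with a second pair 81 bases below it.

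Other members had a control site on a nearby base. The pair chr9:49770870-49770871 had one 2 bases below it and no further knockout site within 4222 bases. The pairs chr13:13770323-13770324 and chr1:183861198-183861199 had one 3 and 4 bases above. In 3-site regions, chr19:37091569-37091570 had one 2 bases below, and chr1:93961176-93961177 and chr6:94696534-94696535 had one 3 bases below. In 4-site regions with 1 pair, the nearest were at 2 bases for chr2:71331609-71331610 and chr15:31254534-31254535 and at 3 bases for chr6:99334271-99334272. At chr15:31254534-31254535 that control site was also the knockout site 2 bases above. Among double pairs, chr9:61244452-61244453 and chr12:81740150-81740151 had a control site 2 bases above and chr19:45698705-45698706 had one 3 bases above, on the second pair of its region.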

How the data were processed

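Positions of listed 5fC bases (no level or count) were used as the authors deposited them, 1 list per genotype. Per the submitters' processing notes, Bismark 0.8.3, HOMER and mm9 were used, without a stated role. The rule for listing a site, the pooling of replicates and the use of inputs are not given in these sources, and read depth is unknown. No base was listed more than once. The members, the spacing ranges and the comparisons were chosen with earlier results of these data known. Regions, pairs and distances were computed in Python 3.11.15 with numpy 2.4.6, scipy 1.17.1 and pandas 2.3.3, and drawn with matplotlib 3.10.9. Medians have 95% order-statistic intervals and differences of shares Newcombe intervals. The member search was tested on simulated lists and returned as many pairs (100%) as the 15485 planted. Only the totals were compared, and a control base in a simulated region was always on its first site. Named members are the 3 farthest from and the 3 nearest to a control site in each layout, ties by position; named autosomes are the 3 highest and lowest, and named windows the 5 fullest. The runs of 3 bases were singled out after their values were seen, as was the count of positions, the comparison of gaps, the matching of single bases and the separate count of control-only sites by region size. No genome or annotation on mm9 was used, so sequence context, genomic features and gene lists were not analysed here.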

Additional observations from a re-analysis of the deposited data

Results flagged for a closer look

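Outside the autosomes, pairs that meet the rest of the rule were noted as signal in data the report does not use. Chromosome X held 4 such pairs, out of 18 adjacent pairs and 306 knockout sites. Sequence that mm9 does not place held 6, out of 10 adjacent pairs and 72 knockout sites.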

How the results depend on the processing

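Of 33 alternatives over 8 results, 16 stayed within 1.5 times the count or within the interval of the main value, and 17 moved; 3 were chosen after seeing the data. The number of members ranged from 4704 with regions of 2 or 3 sites to 8061 with 2 to 5. Joining at 500 and 2000 bases moved adjacent pairs to 18.2% and 14.7% of 2-site regions, the median distance to the third site to 81 and 110 bases (against 101 and 150 in regions without a pair), and the next knockout site to 3170 and 7279 bases. The third site of pairs with a control base was at 87 bases. The share with a control site within 1 kb was 29.3% with joining at 500 bases, 21.7% with 2 or 3 sites, 29.5% with 2 to 5, and 18.97% for control sites not in the knockout list; it was 12.4% within 100 bases and 57.5% within 10 kb. Members per 100 sites were 5.41 over knockout-only sites, 8.16 over sites in regions of 2 to 4, 3.40 with 2 or 3 sites and 5.84 with 2 to 5. Narrower or wider limits move these values by construction, and the cause of the other moves was not tested. Not run were other windows for sequence context and other promoter definitions, for want of mm9 sequence, and leaving out replicates. No paired analysis was possible because each genotype has a single list without replicates. Read depth, which is unknown, limits which bases could be listed at all.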
